A study of Homo sapiens with 24 samples.

Results

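Readthrough transcripts are single RNAs that hold exons of 2 neighbouring genes on the same strand. They were taken as the transcripts that the GENCODE 29 annotation tags as readthrough and whose mean over the 12 libraries of an experiment was at least 0.1 TPM (a transcript's share of the library's transcripts, corrected for its length and scaled to 1000000). Of 1878 tagged transcripts in GENCODE 29, 1313 were listed in the quantified transcriptomes, and 641 of them passed in the whole-cell experiment, out of 98435 transcripts above the same minimum. In the fractionation experiment 624 passed, out of 99482. Together 768 transcripts of 473 genes passed in either experiment, and 497 passed in both. Just inside the minimum in the whole-cell experiment lay AC010197.2-202 at 0.10003 TPM and GCOM1-202 at 0.101 TPM, and just outside it lay AC098484.3-201 at 0.0976 TPM and TIAM2-204 at 0.0959 TPM. In the other experiment AC091167.7-201 at 0.1003 TPM and AC074143.1-203 at 0.101 TPM lay just inside, and AC138894.1-210 at 0.0999 TPM and AL133500.1-201 at 0.0987 TPM just outside.

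The RNA came from A549, an established human lung adenocarcinoma line. The whole-cell experiment held 4 groups of 3 libraries each: cells given a TAOK2 siRNA, cells given a non-targeting control siRNA pool, cells given compound 2, which the labels call an inhibitor of the TAOK2 kinase, and cells given its solvent DMSO. The titles of all whole-cell libraries carry the word mock, and no dose or time is stated for compound 2. The fractionation experiment held total, nuclear and cytoplasmic RNA from cells given TAOK2 siRNA or control siRNA, with 2 libraries in each of the 6 groups. The siRNA was used at 30 nM. No sample carries a genetic change. Each library belongs to a lettered or numbered batch, and the labels do not say that batches are separate cultures, so p-values measure only the spread between these libraries, which may be technical. In bulk RNA, fewer cells of a kind and less RNA per cell cannot be told apart.

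A gene normally ends where the cleavage and polyadenylation machinery cuts the nascent RNA at its poly(A) signal, after which the polymerase is released. When that cut is missed, the polymerase can run into the next gene, and splicing can join an exon of the upstream gene to an exon of the downstream gene, usually skipping the last exon of one and the first exon of the other. Some joined RNAs encode a fused protein. Many shift the reading frame and are annotated as targets of nonsense-mediated decay, the pathway that degrades RNAs with an early stop codon. The serine/threonine kinase TAOK2 acts upstream of stress-activated MAP kinase cascades.

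TAOK2 itself was at 10.6, 12.5 and 8.56 TPM with TAOK2 siRNA, against 40.3, 38.2 and 34.3 TPM with control siRNA (log2 difference -1.75 ± 0.15, SE; adjusted p = 2.32e-05, limma). In the fractionation experiment TAOK2 was lower with TAOK2 siRNA in every batch and fraction, from 3.67 and 2.99 TPM against 9.70 and 5.01 TPM in total RNA, but the test was not passed in any fraction (adjusted p = 0.880 in total, 0.834 in nuclear and 0.565 in cytoplasmic RNA). All 5 epithelial markers were above 1 TPM in the whole-cell experiment and 4 of 5 in the fractionation experiment, with a sum that was higher with TAOK2 siRNA in each fraction and in whole cells (6323 to 6826 TPM, against 4450 to 4731 TPM with control siRNA). The part of this in the knockdown results was not tested. The surfactant genes of mature alveolar cells summed to at most 1.20 TPM in any library. Among leukocyte markers CD14 alone passed 1 TPM and CD3E was at 0 in both experiments, with sums of up to 6.95 TPM in whole-cell and 18.1 TPM in fractionation libraries. Of fibroblast markers COL1A1 passed 1 TPM in both experiments and DCN in the fractionation experiment, with sums of up to 32.1 and 11.6 TPM. The endothelial marker PECAM1 passed 1 TPM in the fractionation experiment. Retained-intron transcripts made up 8.86 to 9.75% of nuclear RNA and 3.59 to 3.92% of cytoplasmic RNA with control siRNA, in the direction of the labels. With TAOK2 siRNA that share was 7.35 to 8.01% of nuclear RNA. Mitochondrial mRNAs made up 37.9 to 42.5% of nuclear RNA and 10.8 to 13.9% of cytoplasmic RNA with control siRNA, so mitochondrial RNA was not depleted from the libraries labelled nuclear. Every nuclear value below is therefore a share of a library in which mitochondrial mRNA took a large part, and the part this has in the results was not tested.

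The 768 transcripts were mostly short bridges between close neighbours. GENCODE annotates 333 as targets of nonsense-mediated decay, 321 as protein coding, 69 as processed transcripts and 43 as retained introns. Both parent genes could be named for 744 of them, 559 from shared exons and 185 from a compound gene symbol, and 24 stayed without a pair. The pairs numbered 462, of which 426 did not overlap, with a median distance of 7716 nt between the genes and a largest of 573553 nt. A single junction joined the 2 genes in 560 transcripts. The transcripts had a median of 7 exons and 1311 nt, against 5 exons and 1015 nt over all transcripts tested in the whole-cell experiment. The sequence that sets a readthrough transcript apart is small. Cut into overlapping 31-base words, a readthrough transcript had a median of 84 words found in no untagged transcript (6.32% of its words), 274 had only 1 to 30 such words and 16 had none. The level of those 290 transcripts rests on a stretch about as long as 1 junction, or on no stretch at all. Set against all other listed transcripts, tagged ones included, 124 had no word of their own.

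The joins of the transcripts that the results turn on are given as 15 bases of the upstream gene's last exon used, in lower case, and 15 bases of the downstream gene's first exon used, in capitals. The sequences are read 5′ to 3′ along the transcript from GENCODE 29 on GRCh38. No untagged GENCODE transcript holds any of these 30-base strings. RNF103-CHMP3 is joined across chr2:86542312-86620330 on the minus strand, COMMD3-BMI1-205 across chr10:22319018-22326431 and COMMD3-BMI1-201 across chr10:22316556-22326431 on the plus strand, so the 2 COMMD3-BMI1 forms leave COMMD3 at different exons and enter BMI1 at the same one. The other joins lie across chr12:89524440-89525120 (POC1B-GALNT4, minus), chr11:58617568-58622766 (ZFP91-CNTF, plus), chr21:33263637-33268394 (IFNAR2 to IL10RB, plus), chr7:99435268-99460086 (ATP5MF-PTCD1, minus), chr3:52833749-52840500 (STIMATE to MUSTN1, minus), chr16:69299774-69316008 (SNTB2 to VPS4A, plus), chr17:57989796-58003651 (SRSF1 to AC015813.1, minus), chr12:56101361-56106588 (ERBB3 to PA2G4, plus) and chrX:77910835-78109867 (ATP7A to PGK1, plus).
RNF103-CHMP3-202: atctggctggttcagGTCAATGAGTGGTCA
COMMD3-BMI1-205: atggaacaattacagGATTTTTTATCAAGC
COMMD3-BMI1-201: acgaggccgtgttagGATTTTTTATCAAGC
POC1B-GALNT4-202: acggcaagcaacttgGAGCCGGCCGTGCCA
ZFP91-CNTF-201: agtgggacggaacggAGCATTCACCGCTGA
AP000295.1-201: gttcctttcttccagCATTGGGAATGGTAC
ATP5MF-PTCD1-201: gagcgtttcaaagagGCCCTGGAGGGACAG
TMEM110-MUSTN1-202: cgctttgggctacccGCTGGTGCTCAGGAA
AC026464.4-201: cccgagggagaactgAAAGCCATTGATCTG
AC015813.2-201: cagcacgagtagatgGCTGACCGGTTCCCT
AC034102.2-201: atacacacctcaaagGGGTACTTCGGTCCT
PGK1-206: ggatagagaaaccagAGTCGACTTCAATGT

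Most readthrough transcripts were scarce, and most lay far below the genes they join. In the whole-cell experiment 258 of 641 (40.2%) averaged at least 1 TPM, against 46.0% of all tested transcripts, and 45 averaged at least 10 TPM. Among fractionation members 223 of 624 (35.7%) did, against 46.2%, and 36 averaged at least 10 TPM. A parent gene's level was taken as the sum of its untagged transcripts. Over the 552 whole-cell members with both parents listed, the median readthrough level was 4.26% of the upstream gene and 9.47% of the downstream gene with TAOK2 siRNA, against 4.07% and 9.16% with control siRNA. With compound 2 the medians were 3.43% and 7.94%, against 3.67% and 7.44% with DMSO. Between 403 and 412 of the 552 lay below both parents in each group, and between 16 and 22 lay above both.

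In the fractionation experiment, over 527 members, the medians in total RNA were 2.91% of the upstream and 6.30% of the downstream gene with TAOK2 siRNA, against 3.09% and 7.68% with control siRNA. In nuclear RNA they were 3.87% and 5.10% with TAOK2 siRNA, against 3.95% and 6.25% with control siRNA. In cytoplasmic RNA they were 1.66% and 4.82% with TAOK2 siRNA, against 1.64% and 5.51% with control siRNA. The tests below used log2 ratios with 0.5 TPM added to both terms, a scale on which the ratio of a scarce transcript moves up when its parent gene falls. On that scale the 3 compound 2 libraries lay above the 3 DMSO libraries against both parents, while the median downstream parent averaged 5.78 TPM with compound 2 and 9.63 TPM with DMSO. Nuclear libraries lay below cytoplasmic ones against the downstream gene on that scale, though the median percentages above had the other order. The median downstream parent averaged 13.3 TPM in nuclear and 6.15 TPM in cytoplasmic RNA with control siRNA.

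**Figure D1:**
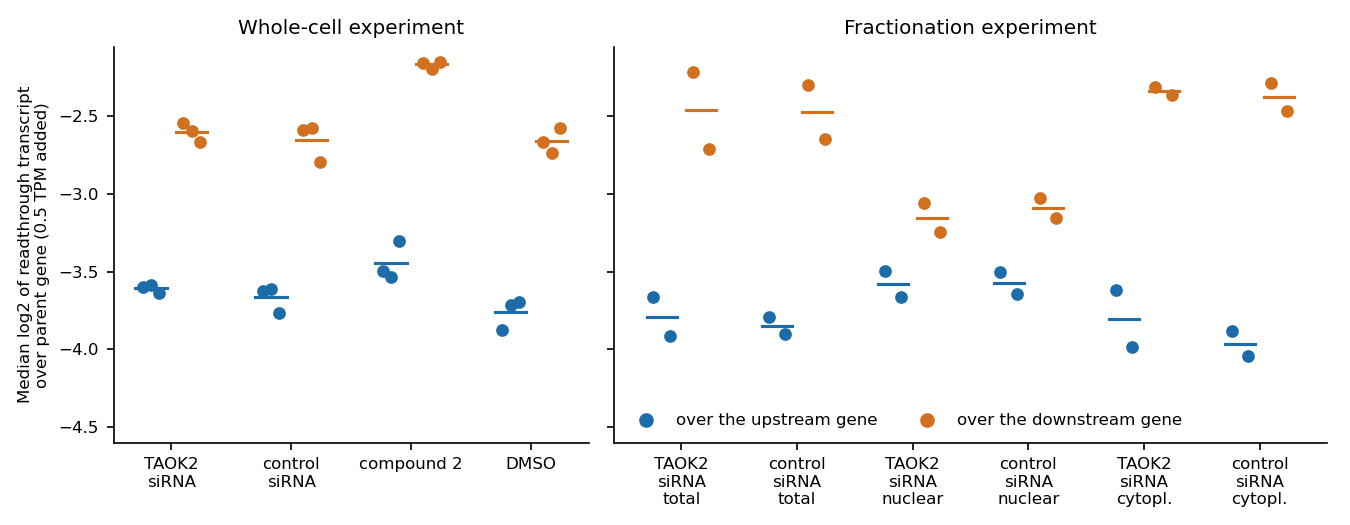
Median log2 ratio of readthrough transcripts to the upstream gene (blue) and the downstream gene (orange) in each library, with 0.5 TPM added to both levels; points are libraries and bars are group means. Against the downstream gene the compound 2 libraries sit between -2.20 and -2.15 and the DMSO libraries between -2.74 and -2.58, and nuclear libraries sit below cytoplasmic ones. With nothing added, the median percent of the downstream gene has the other order, 6.25% in nuclear and 5.51% in cytoplasmic RNA with control siRNA.

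The highest readthrough transcript in whole cells was PGK1-206. It joins the first exon of ATP7A, a copper transporter, to exons of PGK1, which encodes the glycolytic enzyme phosphoglycerate kinase. It was at 248, 222 and 256 TPM with TAOK2 siRNA, 246, 274 and 262 TPM with control siRNA, 236, 235 and 262 TPM with compound 2 and 211, 206 and 221 TPM with DMSO. It stood above both parents in all whole-cell groups, and only 24 of its 2375 words are absent from untagged transcripts. AC138811.2-201, which joins ARL6IP1 to the ribosomal protein gene RPS15A, was at 99.2 to 198 TPM in the whole-cell libraries and at 0 to 0.568 TPM in the fractionation libraries, with 28 words of its own. NME1-NME2-202, which joins 2 nucleoside diphosphate kinase genes, was at 74.6 to 173 TPM in the whole-cell libraries. Among fractionation libraries it was at 11.6 to 143 TPM in batch 1 and at 0.790 to 10.6 TPM in batch 2, so its level followed the batch. The other 7 of the 10 highest averaged between 43.9 TPM (C7orf55-LUC7L2-201) and 72.1 TPM (HSD17B12-201) over the whole-cell libraries. The 2 experiments were normalized apart, and levels in them are set side by side without a test.

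RNF103-CHMP3 joins RNF103, which encodes an E3 ubiquitin ligase of the endoplasmic reticulum, to CHMP3, which encodes a subunit of the membrane-remodelling ESCRT-III complex. The genes lie 39913 nt apart. Its protein-coding form RNF103-CHMP3-202 has 8 exons in 1135 nt, of which 1 matches RNF103, 5 match CHMP3 and 2 match neither and lie before RNF103. It starts 97256 nt before the start of RNF103, and 257 of its 1105 words are absent from untagged transcripts. RNF103-CHMP3-202 was at 1.47, 1.93 and 2.74 TPM with TAOK2 siRNA and at 2.19, 1.82 and 2.38 TPM with control siRNA, and these groups overlapped. It was at 20.2, 16.7 and 15.6 TPM with compound 2, against 1.88, 2.22 and 1.97 TPM with DMSO. The compound 2 libraries were all above the other 9, and on this scale, with 0.5 TPM added, the rise was the largest of any called readthrough transcript averaging at least 0.5 TPM (log2 difference 2.83 ± 0.19, SE; adjusted p = 8.53e-07, limma). With 0.1 TPM added, AC093423.3-201 had the larger difference, 4.47 against 3.04 for RNF103-CHMP3-202.

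The parent genes of RNF103-CHMP3 did not share this rise. RNF103 was at 20.1, 21.4 and 15.1 TPM with compound 2, against 20.5, 19.2 and 17.3 TPM with DMSO (log2 difference -0.02 ± 0.12, adjusted p = 0.904). CHMP3 was at 93.5, 95.1 and 98.0 TPM with compound 2, against 117, 115 and 119 TPM with DMSO (log2 difference -0.29, adjusted p = 0.00161). The transcript RNF103-CHMP3-202 came to 92.7% of RNF103 and 18.3% of CHMP3 with compound 2, against 10.7% and 1.73% with DMSO. Its relative level rose by 2.85 against RNF103 (adjusted p = 6e-06) and by 3.12 against CHMP3 (adjusted p = 3.02e-06), on the log2 scale. The other form, RNF103-CHMP3-201, uses the same join and 2 exons of RNF103. It was listed at 0 in 11 of 12 whole-cell libraries, and in total RNA of the fractionation experiment it was at 1.33 and 0.731 TPM with TAOK2 siRNA, against 1.55 and 0.881 TPM with control siRNA.

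COMMD3-BMI1 joins COMMD3, whose product belongs to a complex that recycles membrane proteins, to BMI1, a subunit of the Polycomb repressive complex PRC1 that silences genes. The genes lie 902 nt apart. The protein-coding form COMMD3-BMI1-205 shares 5 exons with COMMD3 and 9 with BMI1. COMMD3-BMI1-205 was at 8.22, 8.06 and 8.37 TPM with TAOK2 siRNA, against 5.28, 4.51 and 5.37 TPM with control siRNA, and the groups did not overlap. The difference did not pass the test (log2 difference 0.65 ± 0.15, SE; adjusted p = 0.0563, limma). COMMD3-BMI1-205 came to 13.3% of COMMD3 and 13.8% of BMI1 with TAOK2 siRNA, against 8.54% and 8.55% with control siRNA, and neither relative difference passed (adjusted p = 0.359 and 0.340). The parents COMMD3 (log2 difference 0.05) and BMI1 (0.01) did not pass either. With compound 2 it was at 6.25, 5.54 and 7.52 TPM, against 8.21, 6.16 and 8.61 TPM with DMSO, and these overlapped (log2 difference -0.23, adjusted p = 0.266).

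When the tagged transcripts of COMMD3-BMI1 were summed, the gene averaged 8.89 ± 0.288 TPM with TAOK2 siRNA and 5.14 ± 0.321 TPM with control siRNA (SD, n = 3 each). That sum rose in a separate fit over sums (log2 difference 0.74 ± 0.14, SE; adjusted p = 0.00429, limma). In that fit 15.5% of all sums passed, so its call is not set against that of COMMD3-BMI1-205 alone, which did not pass. In the fractions the forms parted. COMMD3-BMI1-206 has the same join as COMMD3-BMI1-205, so reads across it do not tell these forms apart. COMMD3-BMI1-206, an annotated retained intron, was at 2.09 and 2.95 TPM in nuclear RNA with control siRNA and was listed at 0 in both cytoplasmic libraries (adjusted p = 0.00072). COMMD3-BMI1-201, an annotated target of nonsense-mediated decay, was listed at 0 in both nuclear libraries and was at 1.12 and 2.80 TPM in cytoplasmic RNA with control siRNA (adjusted p = 0.00981). COMMD3-BMI1-201 was also listed at 0 in all 12 whole-cell libraries.

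With TAOK2 siRNA in whole cells, few single readthrough transcripts changed. Of 641, 2 rose and 6 fell, or 1.25%, beside 1.65% of all tested transcripts. The share of readthrough transcripts that changed is near that background. None of the 552 with both parents listed changed relative to both parents, beside 0.0325% of untagged transcripts set against the rest of their gene (0.019% higher and 0.0134% lower). At an unadjusted p under 0.05, 22 of the 552 passed against both parents. Over all rows of that fit 9845 passed, where each row is a test against 1 reference and 89276 rows are untagged transcripts.

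The 6 that fell hold diverse pairs. AC013717.1-201 joins the phosphatase gene PPM1B to SLC3A1, a subunit of a cystine and amino acid transporter. It was at 1.14, 1.46 and 0.864 TPM with TAOK2 siRNA, against 4.40, 3.52 and 2.32 TPM with control siRNA (log2 difference -1.22 ± 0.25, SE; adjusted p = 0.0376). Both parents of AC013717.1-201 fell too, PPM1B by 0.54 (adjusted p = 0.00888) and SLC3A1 by 0.88 (adjusted p = 0.00361). TMEM110-MUSTN1-202 joins STIMATE, which encodes a regulator of store-operated calcium entry, to the musculoskeletal gene MUSTN1. It was at 1.69, 2.48 and 1.61 TPM with TAOK2 siRNA, against 5.41, 3.98 and 4.79 TPM with control siRNA (log2 difference -1.12 ± 0.17; adjusted p = 0.0102). Its upstream parent STIMATE fell by 1.19 (adjusted p = 7.83e-06), and TMEM110-MUSTN1-202 stood at 88.5% of STIMATE with TAOK2 siRNA and at 75.8% with control siRNA.

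RBM14-RBM4-203, which joins 2 RNA-binding protein genes, was at 0.589, 0.677 and 0.391 TPM with TAOK2 siRNA, against 2.16, 1.41 and 1.63 TPM with control siRNA (log2 difference -1.08 ± 0.22; adjusted p = 0.0384). RTEL1-TNFRSF6B-202 joins the telomere helicase gene RTEL1 to the decoy receptor gene TNFRSF6B. It was at 0.204, 0.198 and 0.246 TPM with TAOK2 siRNA, against 0.727, 1.11 and 0.925 TPM with control siRNA (log2 difference -0.98 ± 0.17; adjusted p = 0.0163). The parents RBM14 (adjusted p = 0.251), RBM4 (0.0948) and RTEL1 (0.148) did not pass the test. ATP5MF-PTCD1-201 joins a subunit gene of the mitochondrial ATP synthase to PTCD1, which encodes a mitochondrial RNA-binding protein. It was at 5.35, 5.37 and 6.29 TPM with TAOK2 siRNA, against 10.1, 9.18 and 9.68 TPM with control siRNA (log2 difference -0.72 ± 0.13; adjusted p = 0.0215). Its downstream parent PTCD1 had a log2 difference of -0.39 (adjusted p = 0.0612) and ATP5MF of -0.03.

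AC026464.4-201 joins the syntrophin gene SNTB2 to VPS4A, the ATPase that takes ESCRT-III apart. It was at 64.6, 60.7 and 60.4 TPM with TAOK2 siRNA, against 79.7, 82.6 and 73.3 TPM with control siRNA (log2 difference -0.34 ± 0.07; adjusted p = 0.0354), and VPS4A fell by 0.21 (adjusted p = 0.0256). HSD17B12-201, a tagged transcript of an enzyme gene of fatty acid elongation for which no pair was found, rose to 85.5, 85.7 and 88.2 TPM with TAOK2 siRNA, against 64.4, 68.8 and 68.1 TPM with control siRNA (log2 difference 0.36 ± 0.06; adjusted p = 0.016). The other rise was FAM47E-STBD1-202 (1.05 ± 0.18, adjusted p = 0.0152), which averaged 0.383 TPM and was named after its values were seen. In each of the 7 with values given, the TAOK2 siRNA and control siRNA libraries did not overlap. With the batch as a block the differences of RBM14-RBM4-203 (adjusted p = 0.0603) and AC026464.4-201 (0.0518) no longer passed. The count of 8 fell to 2 without TAOK2 siRNA library 1, 1 without library 2, 2 without control siRNA library 1, 1 without library 2 and 4 without library 3.

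**Figure D2:**
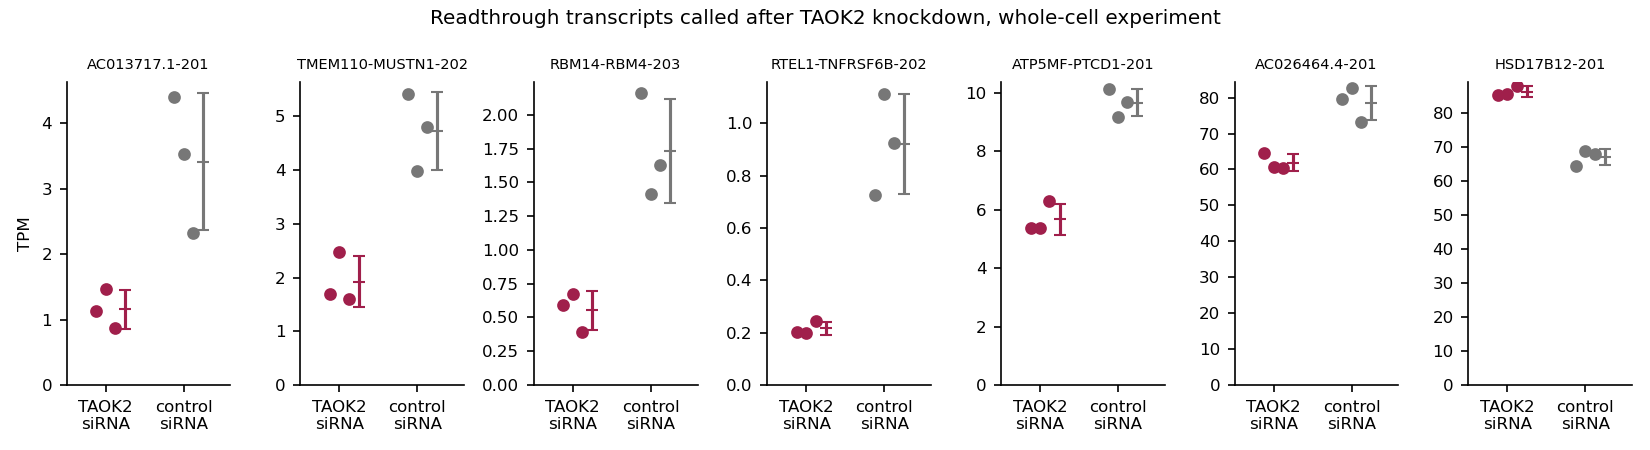
Level in TPM of the 7 readthrough transcripts that changed with TAOK2 siRNA in whole cells and averaged at least 0.5 TPM, with TAOK2 siRNA on the left and control siRNA on the right of each panel; points are libraries, and the bar beside them is the mean with its SD (n = 3). The groups do not overlap in any panel, and HSD17B12-201 alone is higher with TAOK2 siRNA.

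Tested as sums of the tagged transcripts of each gene, in a fit over 18462 sums, more units passed both among readthrough genes and in the background. Of 427 genes, 7 rose and 24 fell with TAOK2 siRNA, or 7.26%, beside 15.5% of all genes whose tagged and untagged transcripts were summed apart. AC013717.1 has the same level as its 1 transcript, yet its adjusted p was 0.00517 in this fit and 0.0376 in the fit over transcripts, so the gain is not due to summing alone. Of the transcripts called singly, RBM14-RBM4-203, RTEL1-TNFRSF6B-202 and FAM47E-STBD1-202 belong to genes whose sums did not pass. The sums of HNRNPUL2-BSCL2, PMF1-BGLAP and MATR3 fell and that of IQCJ-SCHIP1 rose, all named after their values were seen. HNRNPUL2-BSCL2, which ends in the seipin gene of lipid droplet formation, averaged 52.9 TPM with TAOK2 siRNA and 66.0 TPM with control siRNA. That is the level of 1 transcript, HNRNPUL2-BSCL2-201, which did not pass in the fit over transcripts. Its upstream gene HNRNPUL2 was lower too, at a mean of 47.6 TPM with TAOK2 siRNA and 67.7 TPM with control siRNA. IQCJ-SCHIP1 averaged 14.8 TPM with TAOK2 siRNA and 7.56 TPM with control siRNA.

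In the fractionation experiment no readthrough transcript passed for TAOK2 siRNA in any fraction (0 of 624 in limma's test), beside 0.00101% of all transcripts in total, 0.0151% in nuclear (0.00302% higher and 0.0121% lower) and 0.00101% in cytoplasmic RNA. At an unadjusted p under 0.05, 23, 61 and 28 of the 624 passed in total, nuclear and cytoplasmic RNA, against 3891, 6873 and 4146 of all 99482 transcripts. With the batch as a block, 0 of the 624 passed in each fraction, and the shares of all genes under that block are given below with the termination list. With 2 libraries a group these tests had little power, and they do not show that levels were alike. Of the transcripts that changed in whole cells, HSD17B12-201 was at 145 and 182 TPM in total RNA with TAOK2 siRNA, against 112 and 121 TPM with control siRNA, and these did not overlap. ATP5MF-PTCD1-201 was at 4.43 and 1.80 TPM in total RNA with TAOK2 siRNA and at 3.75 and 2.37 TPM with control siRNA, and these did.

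Compound 2 changed many more readthrough transcripts, most of them downward. Of 641, 30 rose and 121 fell, or 23.6%, beside 34.6% of all tested transcripts (9.2% higher and 25.4% lower). The median log2 difference was -0.21 over the readthrough transcripts and -0.22 over all tested transcripts, so the typical readthrough transcript moved as far as the typical transcript. When each library was centred on its median, 79 rose and 60 fell. No share over all transcripts is given for that setting, so these counts are not read as a trait of readthrough transcripts. The summed level of the 641 was 2095 to 2197 TPM with compound 2 and 2246 to 2421 TPM with DMSO. Transcripts listed at 0 numbered 66 to 91 in the compound 2 libraries and 45 to 54 in the DMSO libraries.

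The rises after that of RNF103-CHMP3-202 joined genes of varied function. AC093423.3-201 joins LRRC8C to LRRC8D, both subunits of the volume-regulated anion channel. It was at 1.92, 3.20 and 2.75 TPM with compound 2, and in the DMSO libraries it was listed at 0, 0 and 0.0762 TPM (adjusted p = 0.00369). ZFP91-CNTF-201 joins a zinc finger gene to the gene of ciliary neurotrophic factor. It was at 11, 9.71 and 10.1 TPM with compound 2, against 2.36, 0.674 and 1.67 TPM with DMSO (log2 difference 2.47 ± 0.39, SE; adjusted p = 0.000468). Its downstream parent CNTF rose as well, to 6.51, 5.69 and 6.22 TPM with compound 2, against 1.30, 1.07 and 1.23 TPM with DMSO (adjusted p = 9.06e-08), while ZFP91 fell by 0.47.

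POC1B-GALNT4-202 joins the centriole gene POC1B to GALNT4, an enzyme that starts O-linked glycans, and these 2 genes overlap. It was at 4.50, 4.25 and 2.82 TPM with compound 2, against 0.896, 0.252 and 0.298 TPM with DMSO (log2 difference 2.19 ± 0.27; adjusted p = 8.04e-05). POC1B-GALNT4-202 came to 28.1% of POC1B and 66.8% of GALNT4 with compound 2, against 2.65% and 5.31% with DMSO. POC1B fell by 0.38 (adjusted p = 0.0239). GALNT4 was lower as well, at a mean of 5.78 TPM with compound 2 and 9.08 TPM with DMSO, which adds to the relative rise. How reads were divided between GALNT4 and POC1B-GALNT4-202 was not tested. AC013394.1-202 runs from the noncoding gene LINC01578 into CHD2, a chromatin remodeller. It was at 3.74, 5.94 and 2.87 TPM with compound 2, against 0.599, 0.5 and 0.272 TPM with DMSO, and CHD2 rose by 0.74. ZNF263-202, which runs from LINC00921 into a zinc finger gene, was at 10.2, 11.8 and 9.03 TPM with compound 2, against 2.37, 1.71 and 3.15 TPM with DMSO. FAM185BP-201, of a pseudogene, was at 1.46, 2.12 and 1.43 TPM with compound 2, against 0.660, 0.394 and 0.581 TPM with DMSO. AP002373.1-201 joins RBM7, a subunit of the complex that targets nuclear RNA to the exosome, to the mitochondrial RNA nuclease gene REXO2. It was at 4.10, 2.55 and 3.31 TPM with compound 2, against 0.651, 1.40 and 0.421 TPM with DMSO. In each of these the compound 2 libraries all lay above the DMSO libraries.

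The largest falls brought transcripts close to 0. AP000295.1-201 joins IFNAR2, a subunit of the type I interferon receptor, to IL10RB, a subunit of the interleukin-10 receptor. It was at 0, 0.261 and 0.0695 TPM with compound 2, against 5.74, 6.38 and 4.86 TPM with DMSO (log2 difference -3.35 ± 0.19, SE; adjusted p = 2.98e-07). Its parents fell less. IFNAR2 was at 7.57, 7.95 and 9.29 TPM with compound 2, against 16.0, 14.9 and 13.3 TPM with DMSO. IL10RB was at 11, 10.5 and 11.3 TPM with compound 2, against 23.9, 27.3 and 23.7 TPM with DMSO. AP000295.1-201 thus came to 1.33% of IFNAR2 and 1.01% of IL10RB with compound 2, against 38.4% and 22.7% with DMSO.

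ATP5MF-PTCD1-201 fell to 0.577, 0.877 and 0.618 TPM with compound 2, against 9.47, 8.36 and 8.85 TPM with DMSO (log2 difference -2.99 ± 0.13; adjusted p = 7.58e-08). Its parents moved in opposite directions, ATP5MF rising by 0.26 (adjusted p = 0.000815) and PTCD1 falling by 1.57 (adjusted p = 7.7e-07). AL096711.2-202, which joins SOGA3 to KIAA0408, was at 0.5, 0.581 and 0.562 TPM with compound 2, against 8.88, 8.23 and 6.33 TPM with DMSO (log2 difference -2.98 ± 0.13). KIAA0408 fell by 2.00 and SOGA3 by 0.97, and AL096711.2-202 fell relative to SOGA3 but did not pass relative to KIAA0408. It came to 14.1% of SOGA3 and 210% of KIAA0408 with compound 2, against 92.2% and 194% with DMSO. ANKHD1-EIF4EBP3-203 joins an ankyrin repeat gene to EIF4EBP3, a repressor of cap-dependent translation. It was at 0.397, 1.12 and 0.366 TPM with compound 2, against 6.71, 6.76 and 7.72 TPM with DMSO (log2 difference -2.81 ± 0.21; adjusted p = 1.83e-06), while ANKHD1 rose by 0.49.

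AC073508.2-201 joins the keratin gene KRT222 to SMARCE1, a subunit of the BAF chromatin remodelling complex. It was at 0.285, 0.339 and 0.553 TPM with compound 2, against 4.23, 4.20 and 4.07 TPM with DMSO (log2 difference -2.40 ± 0.15). AC020915.5-201, which joins the zinc finger gene ZNF544 to ERVK3-1, was listed at 0, 0 and 0.0489 TPM with compound 2 and at 2.15, 2.74 and 2.09 TPM with DMSO. The remaining large falls were those of NPIPA1-206 (-2.41) and POLR2J3-206 (-1.92), whose genes belong to families of near-identical copies, so the assignment of their reads is uncertain. No library of either group overlapped the other group in the 6 falls given with values.

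**Figure D3:**
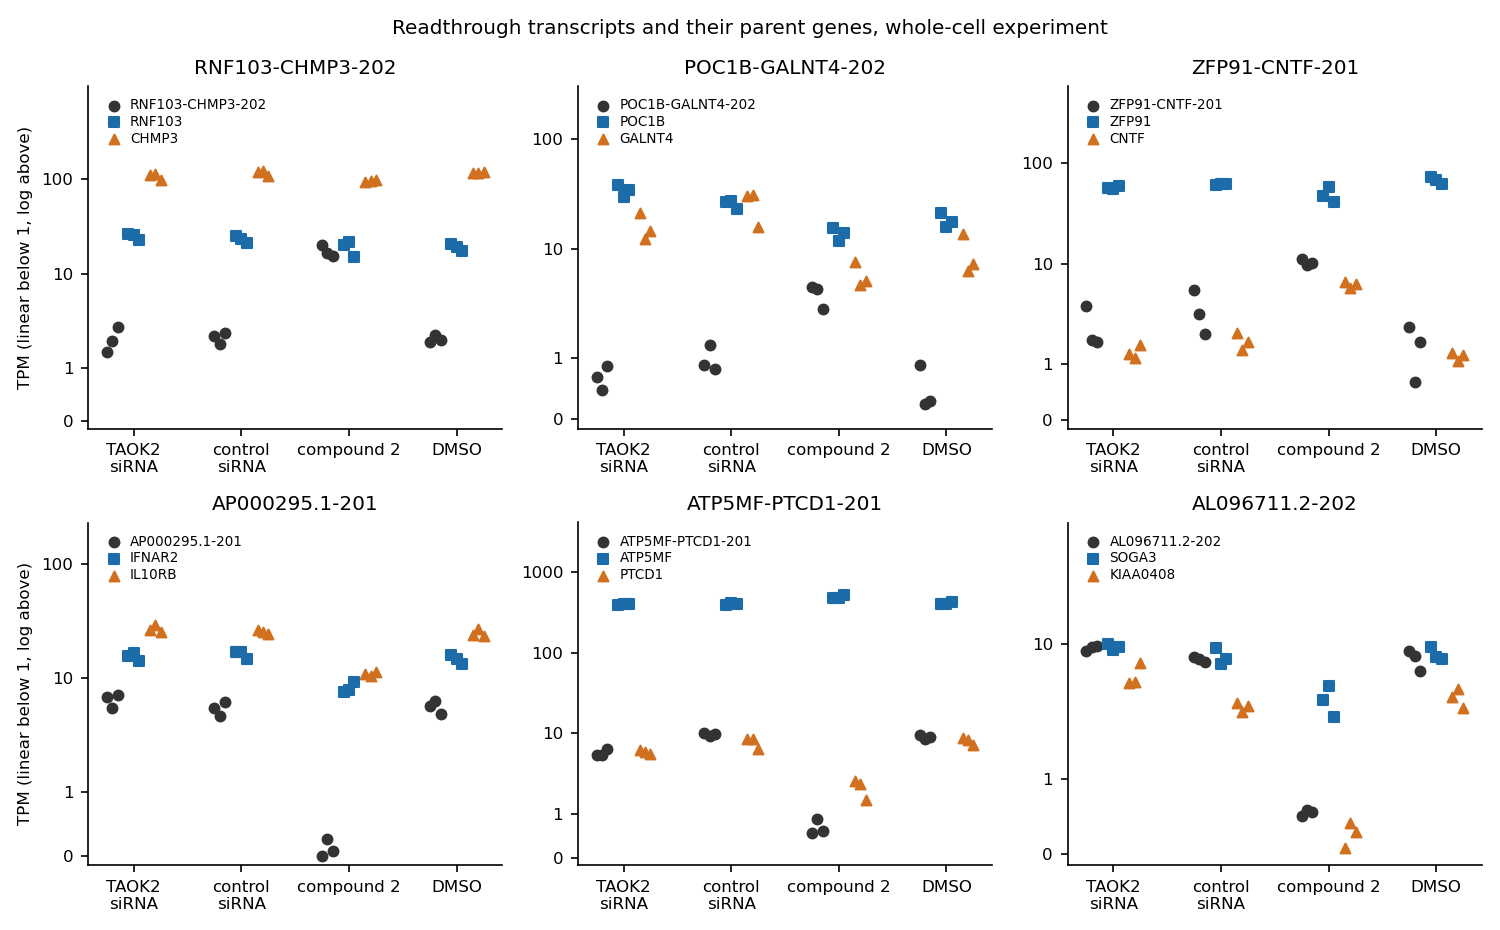
Level in TPM in each whole-cell library of 6 readthrough transcripts (dark circles), their upstream genes (blue squares) and downstream genes (orange triangles); the axis is linear below 1 TPM and logarithmic above. RNF103-CHMP3-202, POC1B-GALNT4-202 and ZFP91-CNTF-201 are higher in all 3 compound 2 libraries than in all 3 DMSO libraries, and AP000295.1-201, ATP5MF-PTCD1-201 and AL096711.2-202 are lower.

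Many falls stood beside a fall of a parent gene. Of 74 fallen transcripts whose parents were both tested, the upstream gene was also lower in 43 (58.1%) and the downstream gene in 56 (75.7%), and both were lower in 32. Over all 371 readthrough transcripts with both parents tested, the upstream gene was lower for 45.8% and the downstream gene for 56.1%. Of 16 risen transcripts, the upstream gene was higher for 5 and lower for 6, and the downstream gene was higher for 4 and lower for 7. Relative to both parents, 30 of 552 rose and 18 fell with compound 2, or 8.70%. The share was 30.3% for untagged transcripts against the rest of their gene, which is a test against 1 reference and not 2. Against 1 parent at a time, 28.3% of readthrough transcripts passed for the upstream gene and 28.3% for the downstream gene. Of the 30, 12 had also risen in level, and of the 18, 16 had also fallen in level. The rises carry the limit of the added 0.5 TPM. Of the 30, 19 averaged under 0.5 TPM, and with 0.1 TPM added 17 rose and 19 fell, while with 1 TPM added 43 rose and 21 fell.

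By the smaller of the 2 relative changes, AC093423.3-201 (3.16 against LRRC8C and 3.84 against LRRC8D), RNF103-CHMP3-202 and POC1B-GALNT4-202 (2.58 and 2.75) led the rises. ANKHD1-EIF4EBP3-203 (-3.30 against ANKHD1 and -2.27 against EIF4EBP3) and AP000295.1-201 (-2.55 against IFNAR2 and -2.20 against IL10RB) led the falls. EIF4EBP3 averaged 0.501 TPM with compound 2 and 0.974 TPM with DMSO, near the 0.5 TPM added. The ratio to EIF4EBP3 thus rests largely on the level of ANKHD1-EIF4EBP3-203 itself. ATP5MF-PTCD1-201 came to 0.141% of ATP5MF and 32.8% of PTCD1 with compound 2, against 2.17% and 111% with DMSO. Both relative falls passed (-3.24, adjusted p = 2.68e-07, and -1.26, adjusted p = 0.000491). The knockdown and compound 2 comparisons have separate controls, and for RNF103-CHMP3-202 the log2 difference was -0.07 with TAOK2 siRNA and 2.83 with compound 2.

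**Figure D4:**
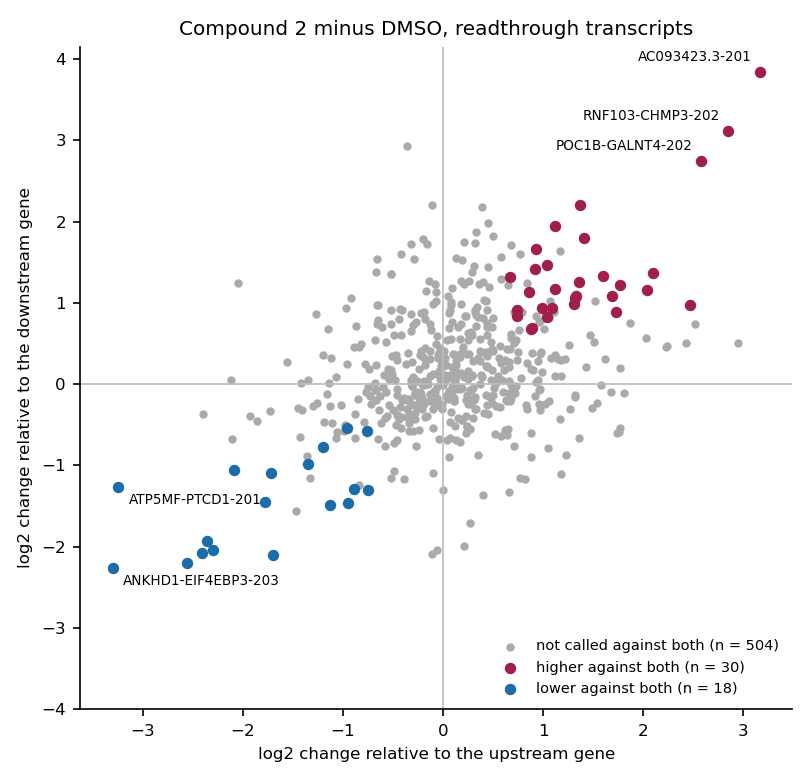
Change with compound 2 minus DMSO in the log2 ratio of each of 552 readthrough transcripts to its upstream gene (horizontal) and its downstream gene (vertical); red points passed the test upward against both genes (30), blue points downward against both (18), and grey points did not pass against both. AC093423.3-201, RNF103-CHMP3-202 and POC1B-GALNT4-202 lie farthest up and right.

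By type, annotated targets of nonsense-mediated decay rose in 3.60% and fell in 19.8% of 278 readthrough transcripts with compound 2, against 7.84% and 20.5% of 8622 other transcripts of that type. Protein-coding readthrough transcripts rose in 5.38% and fell in 15.8% of 279, against 8.53% and 27.4% of 48604 others. These are counts by annotation, and the differences between the sets were not tested.

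In the fractions, readthrough transcripts were more often higher than lower in nuclear RNA, at about the rate of transcripts at large. With control siRNA, 168 of 624 were higher and 32 lower in nuclear than in cytoplasmic RNA, or 32.1%, beside 36.1% of all tested transcripts (29.4% higher and 6.73% lower). The median log2 difference was 0.38 over the readthrough transcripts and 0.43 over all. When each library was centred on its median, 64 were higher and 123 lower, so the direction of the majority depends on the scaling. The share over all transcripts is not given for that setting, so this turn is not read as particular to readthrough transcripts. No named difference that passed turned round under that centring.

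AC015813.2-201 extends SRSF1, the gene of a splicing regulator that limits its own level, into the next gene AC015813.1. It was at 179 and 210 TPM in nuclear RNA and at 3.44 and 3.23 TPM in cytoplasmic RNA with control siRNA (log2 difference 5.66 ± 0.38, SE; adjusted p = 5.35e-05). With TAOK2 siRNA it was at 103 and 126 TPM in nuclear and 2.72 and 2.49 TPM in cytoplasmic RNA. SRSF1 itself did not pass (log2 difference 0.30). CDRT4-203, which joins TVP23C to CDRT4, was at 29.7 and 36.9 TPM in nuclear RNA and at 0.652 and 0.900 TPM in cytoplasmic RNA (log2 difference 4.73 ± 0.28). AC244197.3-201 runs from LINC00893 into IDS, the gene of a lysosomal sulfatase. It was at 18.9 and 17.2 TPM in nuclear RNA and at 0.547 and 0.0478 TPM in cytoplasmic RNA (log2 difference 4.61 ± 0.41), while IDS had a log2 difference of -0.20 that did not pass. POLR2J3-207 (4.10) and FAM95C-201 (3.82) followed. The nuclear and cytoplasmic libraries did not overlap for any of these.

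The largest cytoplasmic excess was that of AC034102.2-201, which joins the receptor gene ERBB3 to PA2G4, whose product binds the ErbB3 receptor. It was at 0.106 and 0 TPM in nuclear RNA and at 5.90 and 8.11 TPM in cytoplasmic RNA with control siRNA (log2 difference -3.75 ± 0.43). With TAOK2 siRNA it was listed at 0 in both nuclear and both cytoplasmic libraries, yet at 4.81 and 10.5 TPM in total RNA, against 11.8 and 23.7 TPM with control siRNA. AC034102.2-201 shares only 1 short exon with ERBB3, at chr12:56101331-56101361, and 5 exons with PA2G4 in its 489 nt. It has 27 words absent from untagged transcripts. With TAOK2 siRNA it was thus found in total RNA and in neither fraction. CPNE1-204 was at 1.18 and 0 TPM in nuclear RNA and at 15.1 and 6.26 TPM in cytoplasmic RNA (log2 difference -3.49 ± 1.11; adjusted p = 0.0393). CPNE1-204 has no word outside untagged transcripts. AP000812.5-203 (-2.80) and CMC4-202 (-2.21) were also lower in nuclear RNA.

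Relative to both parents, 34 of 527 were higher and 18 lower in nuclear RNA with control siRNA, or 9.87%. The share was 29.9% for untagged transcripts against the rest of their gene, which is a test against 1 reference and not 2. Against 1 parent at a time, 30.0% of readthrough transcripts passed for the upstream gene and 33.8% for the downstream gene. With 0.1 TPM added 38 were higher and 10 lower, and with 1 TPM added 37 were higher and 23 lower. The count of 52 fell to 31 and 24 without cytoplasmic library 1 and 2 in turn and to 34 and 33 without nuclear library 1 and 2, and with the batch as a block it was 81. AC023509.3-201, which joins the transcription factor gene ATF7 to the neuropeptide gene NPFF, was at 7.70 and 6.48 TPM in nuclear RNA and at 0.142 and 0.132 TPM in cytoplasmic RNA. It came to 26.1% of ATF7 in nuclear RNA. NPFF itself was listed at 0 in both fractions, so the ratio to NPFF holds only the level of AC023509.3-201 itself, and its call relative to both parents rests on ATF7 alone. ZNF670-ZNF695-202 was at 7.63 and 8.18 TPM in nuclear RNA and at 0.793 and 0.522 TPM in cytoplasmic RNA. AL121594.1-201, which joins a subunit gene of mitochondrial RNase P (KIAA0391) to the proteasome gene PSMA6, was at 7.28 and 6.63 TPM in nuclear RNA and at 0.645 and 0.447 TPM in cytoplasmic RNA.

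Of 85 transcripts higher in nuclear RNA whose parents were both tested, the upstream gene was also higher for 34 (40.0%) and the downstream gene for 45 (52.9%). Over all 359 such transcripts the shares were 24% and 35.9%. By type, 31.7% of 265 readthrough targets of nonsense-mediated decay were higher in nuclear RNA, against 23.4% of 8473 other such transcripts. The shares were 60.6% of 33 and 63.4% of 18353 for retained introns, and 15.2% of 263 and 15.4% of 47590 for protein-coding transcripts. How much sequence sets a transcript apart went with its calls. Of 407 with over 30 words found in no untagged transcript, 37.8% were higher and 3.44% lower, with a median log2 difference of 0.67. Of 204 with 1 to 30 such words, 6.37% were higher and 8.33% lower, with a median of -0.14. The part of this in the fraction results was not tested. No effect of TAOK2 siRNA on a nuclear to cytoplasmic difference passed limma's test among readthrough transcripts (0 of 624), beside 0.00101% of all transcripts. At an unadjusted p under 0.05, 24 of the 624 passed, against 3103 of all 99482. With 2 libraries a group this does not show that the differences were alike.

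**Figure D5:**
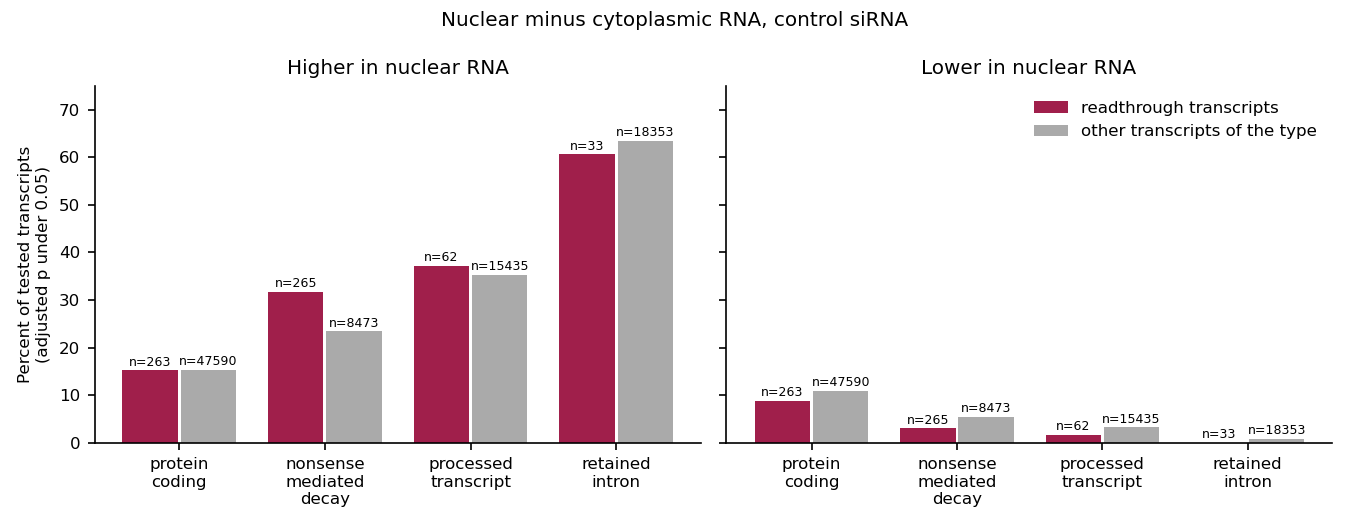
Percent of tested transcripts higher (left) or lower (right) in nuclear than in cytoplasmic RNA with control siRNA at an adjusted p under 0.05, by annotated type, for readthrough transcripts (red) and other transcripts of the type (grey); n is the number tested. Retained introns are most often higher in both sets, and readthrough targets of nonsense-mediated decay are higher in 31.7% against 23.4% of the others.

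The genes whose products cut, release or survey transcript ends were set beside the readthrough transcripts as a list of 69, all of them tested. With TAOK2 siRNA in whole cells none rose and 12 fell, beside 7.78% higher and 14.4% lower of all genes tested, with a median log2 difference of -0.13 over the list and -0.05 over all genes. CSTF2, a subunit of the cleavage stimulation factor, averaged 30.2 ± 0.884 TPM with TAOK2 siRNA and 49.4 ± 1.06 TPM with control siRNA (SD, n = 3 each; log2 difference -0.69, adjusted p = 2.61e-05). CPSF2, of the cleavage complex, fell by 0.40, INTS14, of the Integrator complex, by 0.45, and SNRNP70, of the U1 particle, by 0.45. With compound 2, 13 of the 69 rose and 37 fell, beside 12% and 51.8% of all genes. ZC3H4, a restrictor of noncoding transcription, averaged 1.53 TPM with compound 2 and 21.0 TPM with DMSO. CDK12, a kinase that phosphorylates the polymerase tail, averaged 10.9 TPM with compound 2 and 48.7 TPM with DMSO, and INTS2 fell by 1.69. No gene of the list passed for TAOK2 siRNA in any fraction, beside 0.0145% of all genes in nuclear RNA, all higher, and none in total or cytoplasmic RNA. That fit left out the batch pairing. With the batch as a block, 2 genes of the list fell in nuclear RNA and none passed in total or cytoplasmic RNA. Of all genes, 1.66% were then higher and 0.807% lower in total RNA. The shares were 2.77% and 3.13% in nuclear RNA and 1.49% and 1.45% in cytoplasmic RNA. Without the block, 34 of the 69 were higher and 6 lower in nuclear than in cytoplasmic RNA with control siRNA, beside 29.8% and 18.9% of all genes. Whether any of these differences bears on a readthrough transcript was not tested.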

How the data were processed

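PolyA RNA of A549 cells was sequenced as paired reads of 150 bases, per the labels. Per the submitters' processing notes the authors used kallisto and the build GRCh38.p14; TPM per transcript was deposited, and the kallisto version is not stated. TPM keeps no depth, so no counting interval is given, and kallisto divides reads that match several transcripts by estimation. Of 188753 transcripts, 169797 matched GENCODE 29, whose tags, exons and sequences were used. The members and gene lists were chosen with earlier results of these data known.

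Levels were tested with limma 3.58.1 (R 4.3.3, trend and robust options) on log2(TPM + 0.5), over all transcripts averaging at least 0.1 TPM, with 1 fit per experiment over all its groups. This scale understates fold changes of scarce transcripts. Relative levels were tested likewise on log2 ratios of a member to each parent, and a call needed both parents in the same direction. Genes were tested on log2(TPM + 1) with a mean of at least 1 TPM. P-values were adjusted by Benjamini-Hochberg over all rows of a fit, at 0.05. Methods were tested on simulated data.

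Members named are the 2 given pairs, the 10 highest in whole cells, up to 8 rises and 8 falls per whole-cell comparison and up to 5 per fraction comparison (mean at least 0.5 TPM, same sign in every batch, 1 per gene), up to 5 per relative comparison, the neighbours of the minimum, and their parents; a few that the rule picks are not reported here. Batch labels pair the libraries across groups. Deviations of same-batch libraries correlated at 0.365 to 0.603 among fractionation libraries and at -0.071 to 0.178 among whole-cell ones. The batch block, other pseudocounts, no minimum, median-centring, separate fits, summed transcripts, protein-coding parent transcripts and each library left out were alternatives.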

Additional observations from a re-analysis of the deposited data

How the results depend on the processing

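The 53 named differences that passed were recomputed under 596 alternatives: 544 kept their direction and passed, 52 kept their direction and no longer passed, 38 of these with a library left out, and none reversed. All alternatives were passed by 43 of the 53. Of differences that did not pass, COMMD3-BMI1-205 with compound 2 turned to 0.075 on median-centred values, and RNF103-CHMP3-202 with TAOK2 siRNA ranged from -0.26 to 0.10 with a library left out.

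The whole-cell knockdown count of 8 was 31 with transcripts summed by gene in a fit over fewer units, 3 when only the compared groups were fitted, and 1 to 6 with a library left out. Knockdown counts of 0 were 0 to 1 in total, 0 to 1 in nuclear and 0 to 2 in cytoplasmic RNA with a library left out. The nuclear count of 52 relative to both parents ranged over 24 to 34 with a library left out. The cause of these moves was not tested beyond the fewer libraries or groups in the fits.

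With the replicate block, in which the batch pairs the libraries, that count was 81, the whole-cell knockdown count was 11, the compound 2 count 153, and the nuclear to cytoplasmic count 251 against 200. No share over all transcripts is given for these counts under the block, so they are not read against a background. The termination list had 2 calls in nuclear RNA under the block, both lower, and none without it. Under the block 2.77% of all genes were higher and 3.13% lower in nuclear RNA. RBM14-RBM4-203 and AC026464.4-201 lost their calls under the block; no other named call changed with it.

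TPM keeps no depth, so the precision of single scarce transcripts is unknown. Calls in whole cells rest on 3 libraries a group and those in fractions on 2. Transcripts with few words absent from untagged transcripts rest on reads that cross 1 junction.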

Other observations

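Summed by gene, the tagged transcripts of 29 of 427 genes rose and 126 fell with compound 2, or 36.3%, beside 53.3% of all genes whose tagged and untagged transcripts were summed apart. The summed level of all readthrough transcripts was 2293 to 2415 TPM in the TAOK2 siRNA libraries and 2351 to 2580 TPM in the control siRNA libraries of the whole-cell experiment, ranges that overlap. In the fractionation experiment 66 to 150 readthrough transcripts were listed at 0 in batch 1 libraries and 109 to 195 in batch 2 libraries.

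TMEM110-MUSTN1-202, which was at 1.61 to 6.37 TPM in the whole-cell libraries, was listed at 0 in 11 of 12 fractionation libraries, while its upstream gene STIMATE was at 1.91 to 4.82 TPM there. AC034102.2-201 showed the other order, at 0 to 0.758 TPM in the whole-cell libraries and at 4.81 to 23.7 TPM in the 4 total RNA libraries of the fractionation experiment. The 2 experiments were quantified and normalized apart, and these values are given with no test.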
